A study of Mus musculus with 6 samples.

Results

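Hair follicle progenitor identity genes are the transcription factors, receptors and secreted signals that set up follicle placodes in embryonic skin and keep the stem cells of the adult bulge. The 40 members were taken by gene symbol from the deposited table, which holds 23337 genes in 6 libraries, and all 40 were found. They comprise 6 signals, 7 receptors, adaptors and surface proteins, 18 transcription factors of placode and bulge, and 9 transcription factors of hair matrix and shaft. The libraries are RNA-seq of basal cell carcinoma (BCC) cells from mouse ear epidermis. All 6 came from mice that carried R26-SmoM2/+, an oncogenic, constantly active Smoothened, together with K14CreER, a tamoxifen-activated Cre recombinase made in Krt14-expressing keratinocytes. The 3 Wt libraries had intact Yap (R26-SmoM2/+ K14CreER), and the 3 Ko libraries also carried floxed Yap (R26-SmoM2/+ Yapfl/fl K14CreER). Tamoxifen was given at 4 weeks of age and cells were isolated 6 weeks later, so recombination of both loci depends on the same Cre and the controls are themselves tumours. In both groups the sample codes of replicates 1 and 2 begin with DM22, while that of replicate 3 begins with DM24, and these are called code series here. Wt and Ko libraries of the same replicate number are called pairs here, although the labels state no pairing. The labels do not say that libraries came from separate animals, so the p-values measure the spread between libraries, which may be technical.

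A hair follicle begins as a placode, a thickening of the embryonic epidermis in which Wnt, ectodysplasin and Sonic hedgehog signals act in turn. Cells of the placode and, later, of the bulge use factors such as Sox9, Lhx2 and Nfatc1, whereas matrix cells at the base of a growing hair use Msx2, Dlx3, Gata3, Hoxc13 and Foxn1 to form the hair shaft and its sheaths. Smoothened transmits the hedgehog signal, and tumours driven by SmoM2 are known to take on features of embryonic follicle progenitors. Yap is a transcriptional coactivator that works with TEAD factors and is held back by the Hippo kinases.

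Yap1, the targeted gene, was at 5765, 6004 and 5573 normalized counts in Wt and at 591, 773 and 1764 in Ko, so every Ko library was below every Wt library and Ko replicate 3 kept the most. A normalized count is the number of reads divided by a per-library size factor. Libraries held 15405490 to 25260431 reads, and the smallest 2 were the DM24 pair. Xist, transcribed from the inactive X chromosome, was at 59594 and 58654 in the DM24 libraries and at 8.62 to 15.1 in the other 4, while the Y-linked gene Ddx3y was at 0 in the DM24 pair. Code series, sex marker and depth therefore cannot be told apart. Keratinocyte markers dominated, with summed levels of 577500 to 823838 in Wt and 624676 to 673946 in Ko, and Krt5 and Krt14 were high in every library. Of 12 lymphocyte markers, 6 were at 3 reads or fewer in every library, among them Cd3d, Cd3e and Cd3g, and the sum of the list was 356 to 1152 in Wt and 570.3 to 673 in Ko, 72.1% of it from Thy1. Of 12 endothelial markers, 4 were at 3 reads or fewer in every library (Emcn, Cldn5, Erg and Sox17), and the sum was 169 to 245 in Wt and 209.9 to 223 in Ko, 41.6% of it from Egfl7.

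The tumours of both groups expressed most of this programme. Of the 40 members, 35 averaged 10 or more normalized counts and were tested. Levels were compared between genes only as normalized counts per kilobase of exon. Sostdc1, a secreted antagonist of BMP and Wnt signals, had the highest mean at 4711 per kilobase. The nuclear vitamin D receptor Vdr (2386), the stem cell surface protein Lrig1 (2358), and the homeobox factors Irx4 (2337) and Barx2 (2276) came next and lay close together. Sox9 (2231 per kilobase) and Lhx2 (1651), both needed by bulge stem cells, were sixth and seventh. Cd34, a surface marker of mouse bulge stem cells, had the lowest level of the tested members at 2.26 per kilobase. Nfatc1, another bulge factor, stood at 1101 per kilobase, whereas Cd34 was near the limit of detection in the DM22 libraries (0.892 to 10.7 normalized counts).

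**Figure D1:**
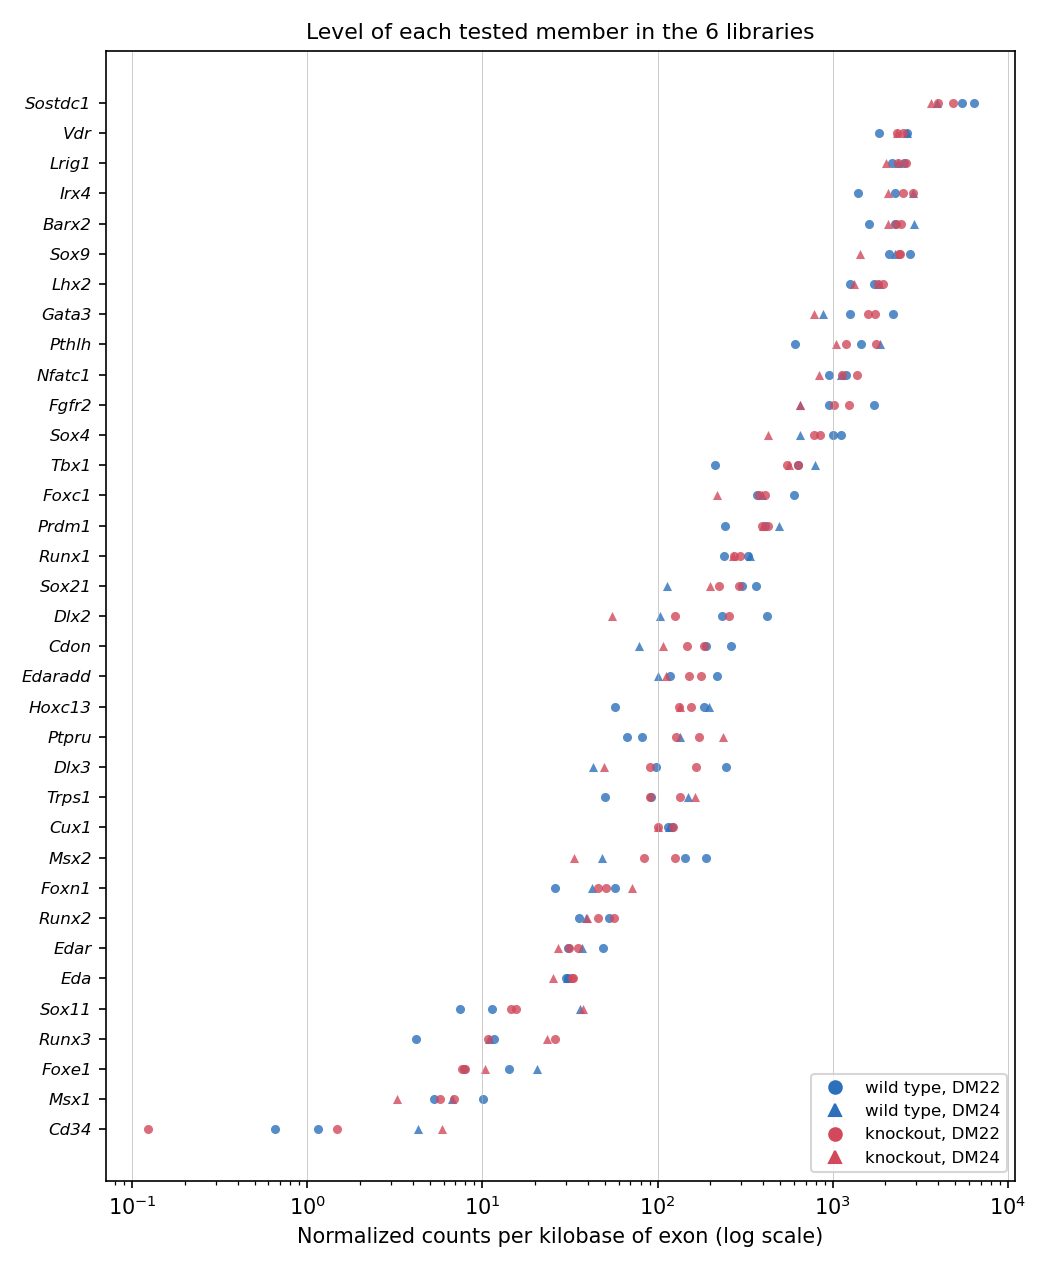
Each row is a tested member and each symbol a library, placed at its normalized count per kilobase of exon on a log axis (circles DM22, triangles DM24, blue wild type, red knockout). The 35 members span from 2.26 per kilobase (mean of Cd34) to 4711 (mean of Sostdc1), and in every row the symbols of the 2 groups intermix.

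The 5 untested members were barely detected. Shh, the hedgehog ligand whose pathway SmoM2 activates downstream of it, was at 0 to 2.60 normalized counts, from at most 2 reads per library. Dkk4, a Wnt inhibitor of placodes, had a single read in all 6 libraries, and Foxd1 had at most 2 reads in any of them. Fgf18, a growth factor of resting follicles, was at 0.841 to 4.95 and Sox2, a factor of dermal papilla and Merkel cells, at 0.824 to 12.6. A count of 3 reads, taken here as the detection floor, correspond to 2.47 to 3.90 normalized counts depending on the library. Sox2 was above that floor in 4 of 6 libraries and Fgf18 in 2, and these 5 genes were left out of the test by the filter on the mean.

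In Ko against Wt the members lay on both sides of no change. With limma on log2(normalized count + 1), 18 of 35 tested members were below 0 and 17 above in Ko minus Wt, against 51.0% below 0 among all 13671 genes tested. Their median log2 difference was −0.017, against −0.0034 for all genes, and single members ranged from −0.84 (Dlx2) to 1.18 (Runx3). No member passed an adjusted p of 0.05 with limma, which called 0% of all genes, and 1 of 35 members (Ptpru) had an unadjusted limma p under 0.05, against 5.55% of all genes. Yap1 itself, with a log2 difference of −2.63, had a limma adjusted p of 0.517. The lack of limma calls therefore does not show that the members were unchanged. No member had 3 Ko values wholly above or wholly below its 3 Wt values, whereas 11.0% of all genes did. In these bulk libraries fewer cells of a type and less RNA per cell cannot be told apart.

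DESeq2 on the recovered reads called 2 members once the replicate number or the code series entered the model. With the replicate number as a block it called 1.24% of all genes and, among members, Ptpru as higher (as 0.417% of all genes) and Sox4 as lower (as 0.819%). With the code series as a term it called 2.22% of all genes and again Ptpru as higher (0.761% of all genes) and Sox4 as lower (1.46%). Without either term DESeq2 called 0.505% of all genes and no member, and edgeR called no gene and no member in any of the 3 designs. The differences of 6 of 35 members exceeded 0.5 on the log2 scale in either direction, against 9.22% of all genes.

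**Figure D2:**
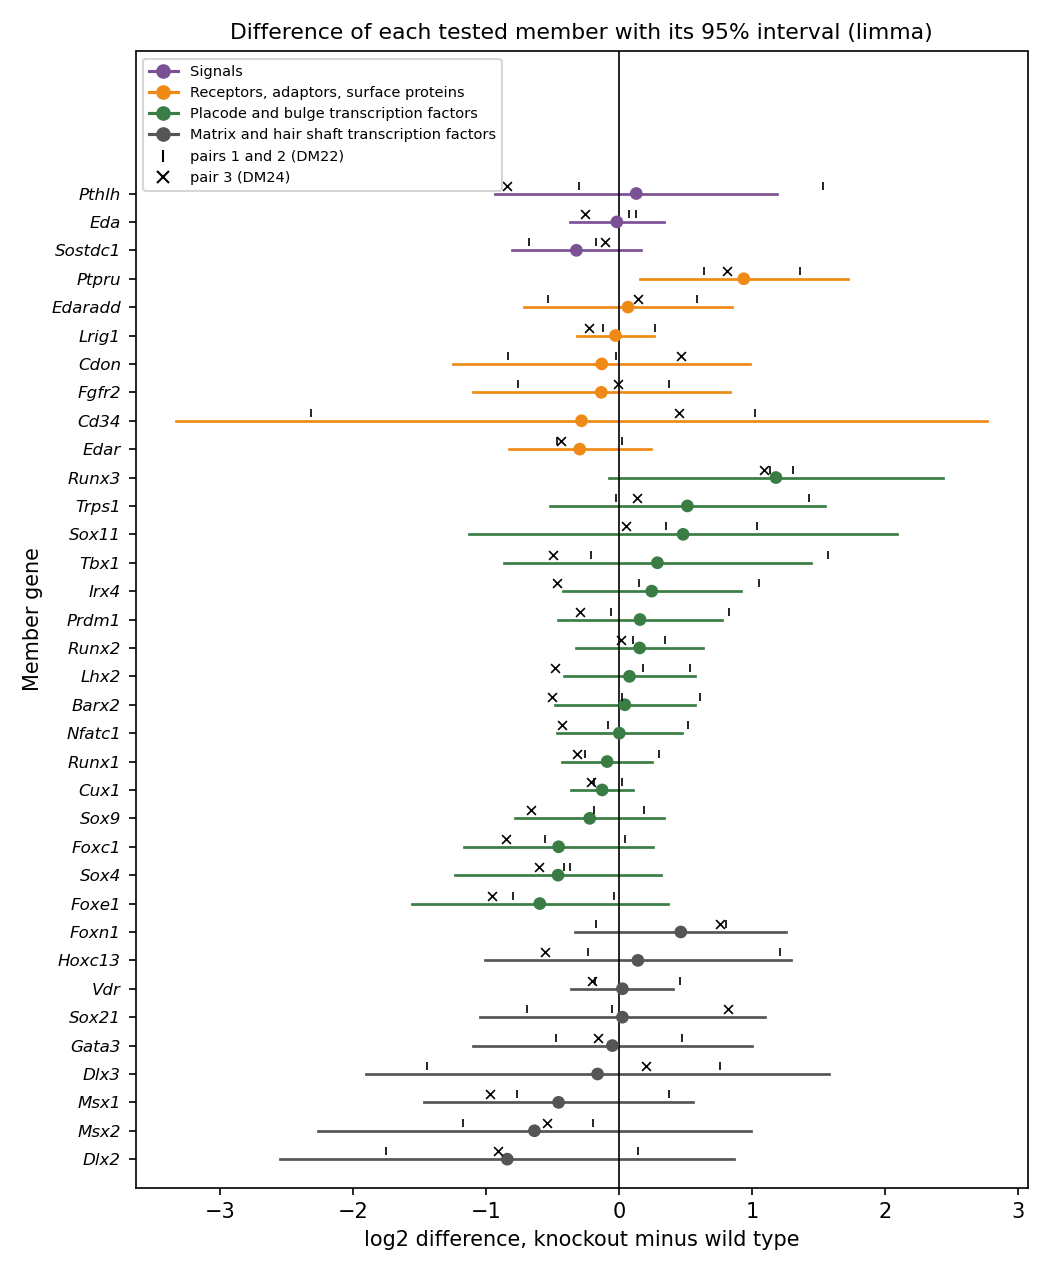
Points show each tested member's log2 difference, knockout minus wild type, with its 95% limma interval, grouped and coloured by role. Ticks mark the differences of replicate pairs 1 and 2 (DM22) and crosses that of pair 3 (DM24). Intervals of 34 members include 0 and that of Ptpru runs from 0.16 to 1.72.

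Among the signals, none of the 3 tested members passed a test. Sostdc1 was at 9727, 11372 and 7015 normalized counts in Wt and at 8619, 7093 and 6512 in Ko, so it was lower in Ko within each pair while the groups overlapped. Its log2 difference was −0.32 ± 0.20 (SE, n = 3 per group; limma adjusted p = 0.961). Pthlh, which encodes a parathyroid hormone-related peptide made by follicle epithelium, was at 2361, 991 and 3032 in Wt and at 1920.1, 2861 and 1689 in Ko. Wt replicate 2 was its lowest library, and the pair differences ran in both directions (−0.30, 1.53 and −0.84). The ligand ectodysplasin (Eda) was steady, at 173 to 223 normalized counts in all 6 libraries, with a log2 difference of −0.017 (95% interval −0.37 to 0.34).

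Among the receptors and surface proteins, Ptpru stood apart. It encodes a receptor-type tyrosine phosphatase of the cell surface and lies at chr4:131768457-131838288 on the minus strand (GRCm38). Its level was 580.1, 479 and 956 normalized counts in Wt and 904, 1231 and 1677 in Ko. The groups overlapped only through the DM24 wild-type library, which exceeded the first Ko library, and each Ko library was above the Wt library of its pair. The mean was 672 ± 251 in Wt and 1271 ± 388 in Ko (SD, n = 3 each), and the log2 difference was 0.94 ± 0.32 (SE), with 0.64, 1.36 and 0.81 in the 3 pairs. Adjusted p-values were 0.842 with limma, 0.302 with limma and the block, 0.141 with limma and the code series, 0.272 with DESeq2, 0.00028 with DESeq2 and the block, and 7.34e-06 with DESeq2 and the code series. The last call was kept with each of the 6 libraries left out in turn, at adjusted p-values of 4.2e-05 to 0.0022 in DESeq2.

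The other 6 members of this role gave no call, and 5 of the 7 were below 0. Edar, the ectodysplasin receptor, had the largest difference downward: 112, 177 and 134 normalized counts in Wt against 113, 128 and 98.6 in Ko, or −0.30 ± 0.22 (SE, limma adjusted p = 0.986). Lrig1, which restrains EGF receptor signalling and marks stem cells of the upper follicle, was the most even. Its 6 values were 14334, 12212 and 13277 in Wt and 13151, 14718 and 11341 in Ko, and its 95% interval of −0.32 to 0.26 was the narrowest of this role. Fgfr2, the receptor for several epidermal fibroblast growth factors, and Cdon, a hedgehog co-receptor, were widest in Wt, at 6750.2 to 17780.2 and 601 to 2016 normalized counts.

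Among the transcription factors of placode and bulge, 16 were tested, 6 were below 0 and the median log2 difference was 0.060. Sox4, which belongs to the SoxC group of factors and lies at chr13:28948919-28953713 on the minus strand, was at 5371, 4832 and 3109.8 normalized counts in Wt and at 4036, 3749 and 2052 in Ko. Each Ko library was below the Wt library of its pair, and the groups overlapped because the DM24 libraries were the lowest of both. The log2 difference was −0.46 ± 0.32 (SE), with −0.41, −0.37 and −0.60 in the pairs. Adjusted p-values were 0.977 with limma, 0.169 with limma and the code series, 0.00863 with DESeq2 and the block, and 0.000672 with DESeq2 and the code series. That last call was kept without Wt replicate 2 (8.8e-05) or Ko replicate 1 (0.013), and lost without any of the other 4 libraries, at adjusted p-values of 0.0869 to 0.178. Sox4 shares 2616 exon bases, 54.6% of its exon length, with the antisense gene Gm26735, and the library kit does not mark strand, so reads of the pair cannot be told apart.

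Runx3, a Runt-domain factor, had the largest difference upward of all members. It was at 21.0, 58.4 and 54.6 normalized counts in Wt and at 53.5, 129 and 118 in Ko. The first Ko library lay within the Wt range while the other Ko libraries were above it, and the 3 pairs gave 1.31, 1.13 and 1.09. The log2 difference was 1.18 ± 0.52 (SE), with adjusted p-values of 0.904 in limma, 0.0966 in DESeq2 with the block and 0.350 in DESeq2 with the code series. Its relatives Runx1 and Runx2 differed by −0.09 and 0.15. Foxe1, a forkhead factor of the follicle, had the largest difference downward among the placode and bulge factors (−0.60 ± 0.40, SE), from 39.5, 22.0 and 57.2 in Wt to 22.3, 21.4 and 29.1 in Ko.

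The factors most often used to define follicle stem cells did not separate the groups, and these were singled out after their values were seen. Sox9 was at 11428, 8708 and 9359 normalized counts in Wt and at 10047, 9898 and 5919 in Ko, with a 95% interval of −0.78 to 0.34 on the log2 scale. Lhx2 was at 7529.8, 5508 and 8135 in Wt and at 8548, 7982 and 5811 in Ko, with an interval of −0.42 to 0.57. In both genes the DM24 knockout library was low and the other 2 Ko libraries lay inside the Wt range or just above it. Nfatc1, which keeps bulge stem cells quiescent, differed by 0.0013 (interval −0.47 to 0.47) and Tbx1, a T-box factor of the bulge, by 0.29 (−0.86 to 1.44).

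Irx4 was at 5908, 3636 and 7495 in Wt and at 6548, 7539.8 and 5427 in Ko, and Barx2 at 4476, 3167 and 5776 in Wt and at 4553, 4826 and 4074 in Ko. In both genes Wt replicate 2 was the lowest of all libraries, and the log2 differences were 0.25 ± 0.28 and 0.043 ± 0.22 (SE). Cux1, a homeobox factor of follicle cells, had the narrowest interval of this role, −0.36 to 0.11.

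Among the 9 transcription factors of matrix and shaft, 5 were below 0 and the median log2 difference was −0.051, with no call by any tool. Dlx2, a homeobox factor, was at 666, 1212 and 295 normalized counts in Wt and at 733, 359 and 157 in Ko. Wt replicate 2 was the highest and the DM24 libraries were the lowest of both groups. Its log2 difference was −0.84 ± 0.70 (SE, limma adjusted p = 0.987), with pair values of 0.14, −1.75 and −0.91. Foxn1, the factor lost in nude mice, had the largest difference upward, 0.46 ± 0.33 (SE), from 83.2, 183 and 135 in Wt to 146, 162 and 229 in Ko. Vdr, which the hair cycle requires, was at 14938, 10356 and 15079 in Wt and at 13198, 14215 and 13091 in Ko, a difference of 0.025 (95% interval −0.36 to 0.41).

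**Figure D3:**
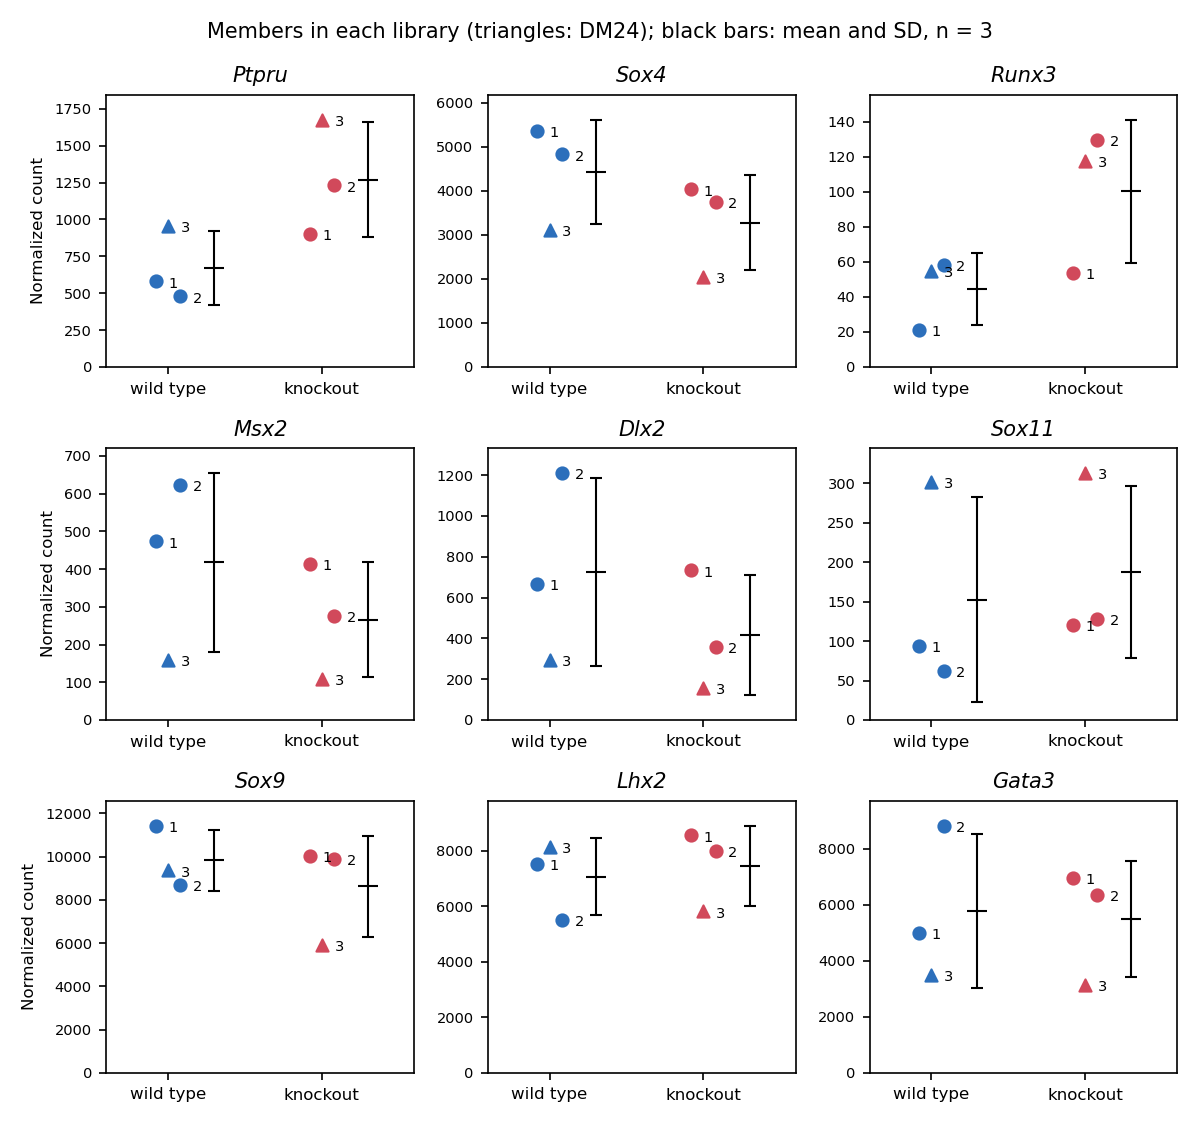
Normalized counts of 9 members in each library (circles DM22, triangles DM24, numbers are replicates), with black bars for the mean and SD of 3 libraries. Ptpru is higher and Sox4 lower in the knockout of each pair, whereas Msx2, Dlx2 and Sox11 separate the DM24 triangles from the DM22 circles.

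The members varied more between libraries of the same genotype than most genes did. The median SD of a member over the 3 Wt libraries was 0.534 on the log2 scale, against 0.171 for all genes, and over the 3 Ko libraries it was 0.340 against 0.162. A wide spread was not particular to the members. The median Wt SD was 0.635 for hair shaft and inner root sheath genes and 0.899 for interfollicular differentiation genes. For follicle progenitor genes outside the members it was 0.346, and for genes from Edar to NF-kappaB 0.143. Part of the members' spread lay between the code series. With group held in the limma fit, 4 of 35 members were called between DM24 and DM22, 2 higher and 2 lower in DM24, where limma called 6.75% of all genes (2.68% higher and 4.07% lower). The same 4 members were called by edgeR, which called 6.39% of all genes (2.98% higher and 3.41% lower). DESeq2 called 13 of 35 members, 4 higher and 9 lower in DM24, and 15.0% of all genes (6.77% higher and 8.27% lower). Differences over 1 on the log2 scale occurred in 7 of 35 members and in 7.89% of all genes.

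Msx2, a homeobox factor of the hair shaft, was at 473, 623 and 159 normalized counts in Wt and 413, 276 and 109 in Ko, so both DM24 libraries were below the other 4 (log2 difference −1.70, limma adjusted p = 0.0163). Sox4 behaved likewise in both groups (−0.82, limma adjusted p = 0.012). Sox11, a SoxC factor like Sox4, went the other way, at 94.2, 62.2 and 302 in Wt and 120.4, 129 and 314 in Ko (1.65, limma adjusted p = 0.0241). Ptpru was also higher in DM24 (0.76, limma adjusted p = 0.0434). Each of these comparisons has 1 DM24 library per group, and with either of them left out limma called no member and 0.658% or 0.285% of all genes.

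The matrix and shaft factors accounted for 4 of the 7 large differences, with a median of −0.95 in DM24 against DM22 and −0.00017 for all genes. Besides Msx2 these were Dlx2 (−1.65), Dlx3 (−1.58), a factor needed for hair shaft formation, and Gata3 (−1.01), a factor of the inner root sheath, named after their values were seen. None of these 3 passed the limma test (adjusted p = 0.0553 to 0.0866), whereas DESeq2 called all 3. Of 19 interfollicular differentiation genes, limma called 5 higher and none lower in DM24, with a median of 1.01 and 4 genes below 0. Krt1, which was not among these 5, reached 54564 normalized counts in Ko replicate 3 and 18834 in Wt replicate 3. Of 10 tested sebocyte markers, limma called 5 higher and none lower in DM24, with a median of 1.75 and 1 gene below 0. The part of both lists in the lower matrix factors was not tested. Of the fibroblast markers, 5 of 6 tested were higher in DM24, although their sum was lowest there (3414 and 1778, against 5405 to 9431 in the other 4), and Dcn gave 92.3% of that sum over all libraries.

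**Figure D4:**
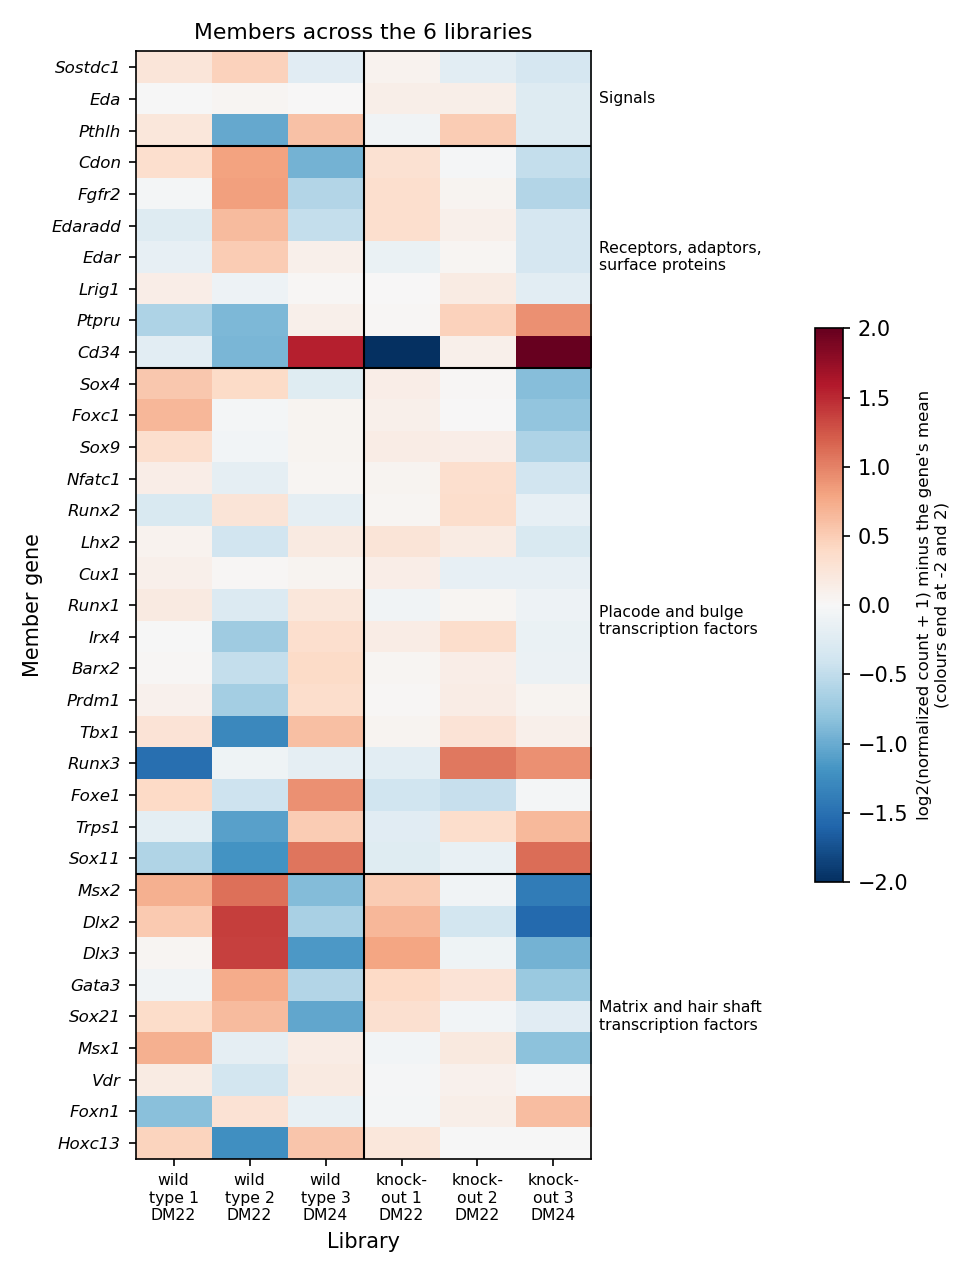
Rows are the 35 tested members by role and columns the 6 libraries. Colour gives log2(normalized count + 1) minus the gene's mean, with colours ending at −2 and 2. Msx2, Dlx2, Dlx3, Gata3 and Sox21 are red in wild type 2 and blue in both DM24 libraries, while Tbx1, Irx4, Prdm1 and Hoxc13 are darkest blue in wild type 2.

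In Wt replicate 2 the medians of placode and of matrix factors lay on opposite sides of the genes' means. It was the lowest of the 6 libraries for 8 of 16 placode and bulge factors and the highest for none, against 20.0% and 23.1% of all genes. For the matrix and shaft factors it was the highest library in 5 of 9 and the lowest in 2 (Hoxc13 and Vdr). For the receptors and surface proteins it was the highest in 4 of 7, with a median of 0.50. The median level around each gene's mean was −0.32 for placode and bulge factors and 0.63 for matrix and shaft factors in that library, against 0.0090 for all genes. Ko replicate 3 was the lowest library for 14 of 35 members, against 22.7% of all genes. The keratinocyte marker sum was highest in Wt replicate 2 (823838) and the dermal papilla marker sum lowest there (1049, against 1795 to 3082 elsewhere). Hhip, which is also on the list of hedgehog target genes, gave 74.1% of the dermal papilla sum over all libraries. It was at 556 normalized counts in Wt replicate 2, its lowest library. A lower sum there is therefore mostly lower Hhip and does not by itself mean fewer dermal papilla cells. The part of both sums in the pattern was not tested.

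**Figure D5:**
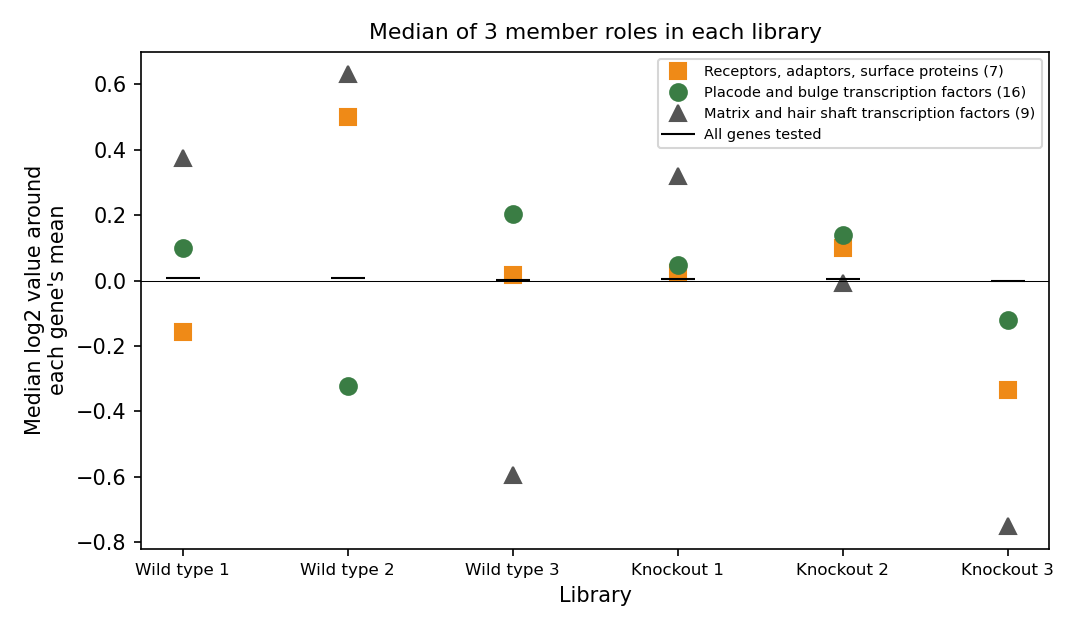
Median over the members of a role of log2(normalized count + 1) around each gene's mean, in each library. Placode and bulge factors (circles) and matrix and shaft factors (triangles) lie farthest apart in wild type 2, at −0.32 and 0.63, and matrix and shaft factors are at −0.59 and −0.75 in the DM24 libraries.

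The Ko minus Wt difference varied between the 3 pairs. The median over the 16 placode and bulge factors was −0.042 in pair 1, 0.53 in pair 2 and −0.45 in pair 3, against −0.00090, −0.011 and −0.0019 over all genes. For all 16 factors the Ko minus Wt difference was lower in DM24 than in DM22, against 49.3% of all genes. Leaving out pair 2, and with it Wt replicate 2, 15 of 16 still had a lower difference in pair 3 than in pair 1, against 49.6% of all genes. On this count of pairs the same held for 8 of 9 matrix and shaft factors, 4 of 7 receptors and surface proteins and 10 of 10 hedgehog target genes. It held for 29 of all 35 tested members, the placode and bulge factors included. With pair 2 kept, the difference was lower in DM24 than in DM22 for 5 of 9 matrix and shaft factors and 3 of 7 receptors and surface proteins. It was lower for 9 of 10 hedgehog target genes and 26 of all 35 tested members. Pair 3 includes the Ko library that kept the most Yap1 (1764 normalized counts), and the part of this was not tested. No member was called for this interaction by limma, edgeR or DESeq2, which called 0%, 0% and 0.263% of all genes. Within each code series taken alone, 5 of 35 members had no overlap between groups, with Ptpru and Sox11 higher and Sostdc1, Sox4 and Msx2 lower in Ko, against 26.1% of all genes. DM24 has 1 library per group, so there this asks only for the same direction as in DM22.

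Related gene lists gave few calls. Of 34 tested follicle progenitor genes outside the members, 12 were below 0, the median log2 difference was 0.076 and none was called by any tool. The largest differences there were those of Ncam1 (0.59), the growth factor Tgfb2 (0.56), Bmp2 (−0.48) and the TNF receptor family gene Tnfrsf19 (0.45). Of 14 tested hair shaft and inner root sheath genes, 6 were below 0 with a median of 0.053, and 1 was called, by DESeq2 with the code series. That gene was Tchh, which encodes trichohyalin of the inner root sheath, at 878, 958 and 669 normalized counts in Wt and 629, 549 and 566 in Ko (−0.51 ± 0.15, SE, DESeq2 adjusted p = 0.0314, limma 0.733). The metallothionein Mt4 (1.33) and the root sheath keratins Krt28 (0.90) and Krt73 (0.43) were not called.

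Of 10 hedgehog target genes, 9 were below 0, with a median of −0.20, and none was called by limma. Ptch1, the hedgehog receptor that its own pathway induces, differed by −0.44 and was called by DESeq2 with the code series (adjusted p = 0.00578), and Mycn (−0.64) was called by DESeq2 with the block (adjusted p = 0.00222). Hsd11b1 (−1.23) and Hhip (0.82) were not called, and Gli1, the pathway's main readout, differed by −0.035. Gli1 was singled out after its values were seen. In the axis from Edar to NF-kappaB, 12 of 18 tested genes were below 0 with a median of −0.024. Tnfaip3, a feedback inhibitor of NF-kappaB, was at 7656, 5545 and 5006 in Wt and at 3111, 3229 and 3174 in Ko, without overlap (−0.91 ± 0.16, SE). It was called by DESeq2 in all 3 designs (adjusted p = 0.000173, 7.88e-06 and 2.82e-06) but not by limma (0.666). Foxi3, a forkhead factor of the placode, differed by −0.59 and was called by DESeq2 with the block alone (adjusted p = 0.0101). Cxcl10 (−0.71) and Nfkbia (−0.24) were not called.

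Of 19 tested interfollicular differentiation genes, 8 were below 0 with a median of 0.18, and none was called by any tool. The largest differences among those with a mean of at least 50 were those of Calml3 (1.08), the cornified envelope protein Lor (−1.0), Casp14 (−0.65) and Tgm3 (0.60). Their summed level was 42019 to 64076 normalized counts in 5 libraries and 126161 in Ko replicate 3.

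Promoter windows, the 250 bases before each RefSeq transcription start (GRCm38.p6), were found for 30 of the 40 members, 34 windows in all. Those of Ptpru and Sox4 are shown because these were the 2 members called between the groups, and that of Dlx2 because it had the largest difference downward. All 3 read 5′ to 3′ on the minus strand, at chr4:131838279-131838528, chr13:28953700-28953949 and chr2:71546755-71547004, with capitals for the TEAD motif GGAATG or its reverse complement CATTCC.
Ptpru: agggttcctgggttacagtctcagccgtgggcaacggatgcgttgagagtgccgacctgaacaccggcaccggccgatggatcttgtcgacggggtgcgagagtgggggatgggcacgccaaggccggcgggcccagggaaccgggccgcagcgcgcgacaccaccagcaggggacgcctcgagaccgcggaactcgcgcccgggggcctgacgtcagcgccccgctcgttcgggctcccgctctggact
Sox4: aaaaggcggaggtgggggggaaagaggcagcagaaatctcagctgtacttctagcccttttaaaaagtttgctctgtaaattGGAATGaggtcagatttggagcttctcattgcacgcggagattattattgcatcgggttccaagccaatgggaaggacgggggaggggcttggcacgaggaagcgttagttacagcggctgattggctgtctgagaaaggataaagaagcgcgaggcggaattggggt
Dlx2: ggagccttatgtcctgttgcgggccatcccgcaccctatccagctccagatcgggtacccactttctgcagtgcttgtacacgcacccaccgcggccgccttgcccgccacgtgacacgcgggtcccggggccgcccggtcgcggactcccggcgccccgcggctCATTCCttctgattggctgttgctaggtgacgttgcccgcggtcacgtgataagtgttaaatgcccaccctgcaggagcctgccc
The Sox4 window holds GGAATG beginning at base −168 from the start and the Dlx2 window holds CATTCC beginning at base −85, whereas the Ptpru window holds neither. On both strands together the motif occurred in 5 of 34 member windows (14.7%), those of Dlx2, Eda, Edar, Runx1 and Sox4, and in 12.6% of all 32851 windows. The AP-1 motif TGAGTCA or its reverse complement TGACTCA occurred in no member window and in 4.46% of all windows, and the GLI motif GACCACCCA in none and in 0.225%. Member windows had a median GC content of 65.2%, against 52.4% for all windows. The motif shares were not matched for base content and were not tested.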

How the data were processed

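RNA-seq libraries were made with the TruSeq RNA Library Preparation Kit v2, per the labels' protocols, and STAR 2.5 and DESeq2 1.18.1 are named in the submitters' processing notes with mm10 (GRCm38). The authors deposited 1 table of signal values, which are reads per gene divided by a size factor; all values of 6 libraries returned whole reads within 0.001 when multiplied by that factor, which equalled the median-of-ratios factor. No column of sample values was left unused. On log2(normalized count + 1), limma 3.58.1 (trend, robust; R 4.3.3) was fitted without covariates to the 13671 genes with a mean of at least 10, and p-values were adjusted by Benjamini and Hochberg over all of them with a threshold of 0.05. Fold changes on that scale understate those of low genes. DESeq2 1.42.0 and edgeR 4.0.16 (quasi-likelihood test after TMM scaling) served as alternatives on the recovered reads. The 3 fits were tested on simulated counts with the same spread parameter for every gene. That test does not carry the gene-by-gene spread of these libraries.

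The members and lists were chosen with earlier results of these data known. Values in all 6 libraries are given for members called by any tool, the 5 highest per kilobase and the largest difference of each role in each direction; of other lists up to 4 genes with a mean of at least 50. Exon lengths and overlaps came from GENCODE vM21, and promoter windows from RefSeq. Same-numbered Wt and Ko libraries had correlated deviations from their group means (0.333, 0.327 and 0.694), and the numbers were taken as pairs. Within DM22 the correlations do not single out this pairing, because Wt replicate 2 correlated more with Ko replicate 1 (0.505).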

Additional observations from a re-analysis of the deposited data

How the results depend on the processing

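The number of members called in Ko against Wt was 0 with limma under each setting and with edgeR, and 2 with DESeq2 and the replicate block or the code series. Over all genes DESeq2 called 69 without a term, 169 with the replicate block and 303 with the code series, and limma on the DM22 libraries alone called 2. The replicate block changed no other member call. With 1 library left out, limma called 0 to 1 gene. Leaving out 1 library in DESeq2 was added after seeing the data and gave 0 to 4 members, against 0.176% to 3.64% of all genes (with Runx3 and Foxc1 added without Wt replicate 2, and Dlx2 without Ko replicate 1). Members below 0 in limma numbered 11 to 23 and members without overlap 0 to 7 with 1 library left out, against 13.9% to 27.7% of all genes, and 11 members had no overlap in the DM22 libraries alone, against 44.7% of all genes. Within each code series, where DM24 asks only for the same direction, 5 had no overlap, against 26.1% of all genes. This criterion was also chosen after seeing the data.

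Between the code series DESeq2 called 2056 genes and 13 members. In limma, leaving out 1 library gave 39 to 1493 genes and 0 to 10 members, with 0 without Wt replicate 3 or Ko replicate 3. DESeq2 called 36 genes for the interaction.

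No member that changed sign was called. On the DM22 libraries alone the difference became 0.10 for Eda, 0.072 for Lrig1, 0.022 for Runx1, 0.0020 for Gata3 and −0.37 for Sox21. Quantile normalization gave 0.056 for Lrig1. With edgeR, without a term, with the replicate block and with the code series, Cd34 was 0.29, 0.044 and 0.13, and with DESeq2 0.30 without a term and 0.065 with the code series. Hoxc13 was −0.046 and −0.0058 in edgeR and −0.045 and −0.0039 in DESeq2, each without a term and with the code series. Without a term Sox21 was −0.11 in edgeR and −0.12 in DESeq2, and Eda 0.0024 in DESeq2.

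Leaving out 1 library turned the sign of further members. In ranges these were Eda −0.078 to 0.10, Pthlh −0.35 to 0.46, Edaradd −0.16 to 0.40, Fgfr2 −0.46 to 0.24, Cdon −0.63 to 0.24, Lrig1 −0.12 to 0.071 and Cd34 −1.36 to 0.91. Among placode and bulge factors they were Sox9 −0.35 to 0.030, Lhx2 −0.091 to 0.25, Tbx1 −0.29 to 0.66, Nfatc1 −0.17 to 0.19, Irx4 −0.046 to 0.48, Prdm1 −0.14 to 0.37 and Barx2 −0.18 to 0.25. Among matrix and shaft factors they were Hoxc13 −0.43 to 0.45, Dlx3 −0.78 to 0.48, Gata3 −0.36 to 0.31, Vdr −0.15 to 0.12 and Sox21 −0.49 to 0.35. The cause was not tested. Depth limits Shh, Fgf18, Dkk4, Foxd1, Sox2 and Cd34, whose libraries hold at most 34 reads each.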
